A study of Mus musculus with 36 samples.

Results

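The translation initiation factor genes were described in 36 mouse half-embryos, each a single blastocyst that 1 sister blastomere formed after a 2-cell embryo was bisected. Members were the genes whose symbol starts with Eif and a digit from 1 to 6, without pseudogenes (6 entries) and without Eif2s3x and Eif2s3y, the copies of the eIF2 gamma subunit gene on the X and Y chromosomes. This left 54 genes among 40160 transcript clusters (the units of the array, each a set of probes for 1 transcribed locus) that carry a gene symbol. Of the 54 members, 52 were detected, meaning that in at least 50% of the arrays of some medium they exceeded a background level, the 90th percentile of the array's clusters for vomeronasal and olfactory receptors; Eif5a2 and Eif2c5 were not. The clusters of Eif3j1 (shared with Eif3j2), Eif5 (with Snora28), Eif4a2 (with Snord2 and Snora81) and Eif4ebp3 (with Ankhd1) also carry the named other genes, whose transcripts cannot be told apart from the member's there.

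Zygotes of the B6C3F1 x CD1 cross, collected after hormonal stimulation, were kept in KSOM(aa) to the 2-cell stage in all groups, and separated sister blastomeres were then cultured singly for 72 h, about 96 h in all. Of 10 embryos, 9 to 18, the half-embryo "a" was placed in GM501 (n = 10) and its sister "b" in SAGE 1-step (n = 10), both of them media made for human assisted reproduction. Of 8 other embryos, 1 to 8, both half-embryos stayed in KSOM(aa), a medium long used for mouse embryos (n = 16). No intact embryo was among the samples, the labels put a blastocyst at about 40 to 50 cells, and no sex or lineage sort was made.

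Initiation is the step of protein synthesis at which the small ribosomal subunit, loaded with the initiator transfer RNA by eIF2, is brought to the capped end of a messenger RNA by eIF3 and the eIF4 proteins and scans to the start codon. Its rate is set at 2 well known points: exchange of GDP for GTP on eIF2 by eIF2B, which eIF2 kinases block under stress, and binding of the cap by eIF4E, which 4E-binding proteins block when mTORC1 is inactive. In the mouse preimplantation embryo, protein synthesis changes from maternal to embryonic messages from the 2-cell stage on, and the blastocyst is a stage of fast growth.

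Promoter sequence was available for 42 of the 54 members (RefSeq, build GRCm38.p6, 250 bases before to 50 bases after each annotated start). Both strands were searched for the E-box CACGTG, a palindrome bound by MYC and related factors, for the ETS site CCGGAAG, and for the cyclic AMP response element TGACGTCA. The E-box stood in 10 of the 42 members (23.8%), against 8.09% of all 27025 genes with a promoter sequence and 11% of the 10450 of them that were detected here. The ETS site stood in 16 members (38.1%), against 9.93% of all genes and 18.8% of detected genes, and the cyclic AMP response element in 0 members, against 2.03% and 3.4%. Windows of 7 members are shown from 5′ to 3′ on the strand of the gene, with the motif in capitals, 4 with an E-box and 3 with an ETS site written as its reverse complement CTTCCGG. They were picked because these members' signals are described in full below, not by a pattern of the motif. Between the 2 sets of embryos described below, embryos 15 to 18 had the higher mean for 6 of the 10 E-box members and the lower mean for 4 (Eif1b, Eif3f, Eif3k and Eif4e). Of the 16 ETS site members, 11 had the higher mean there and 5 the lower, and of all 54 members 29 had the higher and 25 the lower. Whether a motif went with these directions was not tested.
Eif4h, E-box, chr5:134639470-134639535, minus strand: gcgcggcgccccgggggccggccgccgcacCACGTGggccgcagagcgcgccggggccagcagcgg
Eif5a, E-box, chr11:69921425-69921490, minus strand: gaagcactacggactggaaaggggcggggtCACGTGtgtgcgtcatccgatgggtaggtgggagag
Eif4g1, E-box, chr16:20672643-20672708, plus strand: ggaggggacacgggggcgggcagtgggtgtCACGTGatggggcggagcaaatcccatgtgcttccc
Eif4e, E-box, chr3:138527174-138527239, plus strand: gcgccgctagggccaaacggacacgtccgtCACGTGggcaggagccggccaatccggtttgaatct
Eif3l, ETS site, chr15:79075158-79075222, plus strand: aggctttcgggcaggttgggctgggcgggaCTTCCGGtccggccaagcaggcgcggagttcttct
Eif3d, ETS site, chr15:77970858-77970924, minus strand: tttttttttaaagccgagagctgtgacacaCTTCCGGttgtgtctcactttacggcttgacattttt
Eif1ax, ETS site, chrX:159371936-159372002, plus strand: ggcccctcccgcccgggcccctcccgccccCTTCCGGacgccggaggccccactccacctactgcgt
A match is a match of letters only, and binding was not measured.

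Each half-embryo was hybridised to its own array, and the values are log2 signals, so that a difference of 1 is a 2-fold change. By the array names in the file headers, all KSOM(aa) arrays belong to 1 array set and all GM501 and SAGE 1-step arrays to another, so a difference from KSOM(aa) may be of the medium or of the array set, which the design confounds. The 20 half-embryos of GM501 and SAGE 1-step fell into embryos 15 to 18 (8 arrays) and embryos 9 to 14 (12 arrays), a split seen in the signals that no label names. 18S ribosomal RNA (Rn18s) was at 18.46 to 18.66 in embryos 15 to 18, at 16.15 to 17.65 in embryos 9 to 14 and at 17.96 to 18.71 in KSOM(aa), and Gapdh was at 15.55 to 15.90, 13.90 to 15.24 and 15.48 to 15.93 in the same order. The mean of 8 trophectoderm markers, all detected, was 12.18 to 12.81 in embryos 15 to 18, 11.35 to 12.19 in embryos 9 to 14 and 12.51 to 13.29 in KSOM(aa), and 5 of the 8 (Eomes, Krt18, Krt8, Tead4, Tfap2c) fell in each of GM501 and SAGE 1-step against KSOM(aa). All 7 epiblast markers (mean 6.66 to 8.98 over the arrays) and 5 of 6 primitive endoderm markers (5.69 to 6.89) were detected too, whereas 2 of 8 cumulus and granulosa cell markers and 1 of 6 oocyte transcripts were. The fall was not of trophectoderm markers only. Against KSOM(aa), Actb and Gapdh also fell in both media, and Hprt, Rn18s and the epiblast marker Pou5f1 in SAGE 1-step. The primitive endoderm marker Col4a1 rose in both media, and the oocyte transcript Gdf9 in SAGE 1-step. Half-embryo 16b (SAGE 1-step) stood apart within its set, with a median over the members of 10.54 against a median of 11.92 over the 8 arrays of embryos 15 to 18. It did so beyond the members too. Its background level was 5.30 against a median of 4.72 in the set, its Hprt 13.51 against 14.94 and its epiblast marker mean 6.66 against 8.14. Its median over detected clusters (7.01 against 7.03) and its Rn18s (18.46 against 18.60) lay near those of the set. Several results that rest on 16b are therefore also given without it.

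The first comparison asks what culture in a human assisted reproduction medium did to these genes. In GM501 against KSOM(aa), 12 of 54 members passed an adjusted p of 0.05 (limma, Benjamini-Hochberg over all 40160 clusters), 2 of them higher and 10 lower, where 7.66% of all clusters passed, 4.06% higher and 3.6% lower. SAGE 1-step against the same KSOM(aa) half-embryos gave 17 members, 5 higher and 12 lower, where 9.55% of all clusters passed, 5.13% higher and 4.42% lower. The median log2 difference of the members was -0.07 in GM501 and -0.12 in SAGE 1-step, where that of all clusters tested was 0.09 and 0.10. These shares are over members and clusters detected or not: with the detected clusters tested by themselves, 14 of 52 members (3 higher, 11 lower) passed in GM501, where 17.2% of detected clusters did (9.41% higher, 7.76% lower), and 18 of 52 (6 higher, 12 lower) in SAGE 1-step, where 19.8% did (10.9% higher, 8.9% lower). The direction of the calls changed when each array was scaled to Actb, Gapdh and Hprt. Actb and Gapdh had themselves fallen in both media, and Hprt in SAGE 1-step. This scaling moved the median of all clusters to 0.62 in GM501 and 0.69 in SAGE 1-step. It moved the median of the members along, to 0.45 and 0.48, still below that of all clusters. In GM501, 31 of 37 called members were then higher and 6 lower, where 79.1% of all clusters passed (77.9% higher, 1.25% lower). In SAGE 1-step, 32 of 40 were higher and 8 lower, where 84.3% did (83% higher, 1.27% lower). Members with a log2 difference below 0 then numbered 14 in GM501 and 12 in SAGE 1-step, where the signals as deposited gave 31 and 35. The share of members called under this scaling was thus below that of all clusters. Other scalings kept the called members mostly lower. Quantile normalization gave 2 higher and 13 lower in GM501, and 4 and 12 in SAGE 1-step, where 11% and 12.1% of all clusters passed. Centring on the array median gave 2 and 8, and 2 and 12, where 9.18% and 11.4% did. With the embryo as a random block, which counts sisters as related, 9 members passed in GM501 and 16 in SAGE 1-step, where 5.21% and 6.8% of all clusters did. With the 2 sisters of an embryo in KSOM(aa) averaged to 1 sample, 1 member passed in GM501 (Eif3l), where 1.47% of all clusters did, and 3 in SAGE 1-step (Eif2b4, Eif2d and Eif3l), where 1.85% did.

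**Figure D1:**
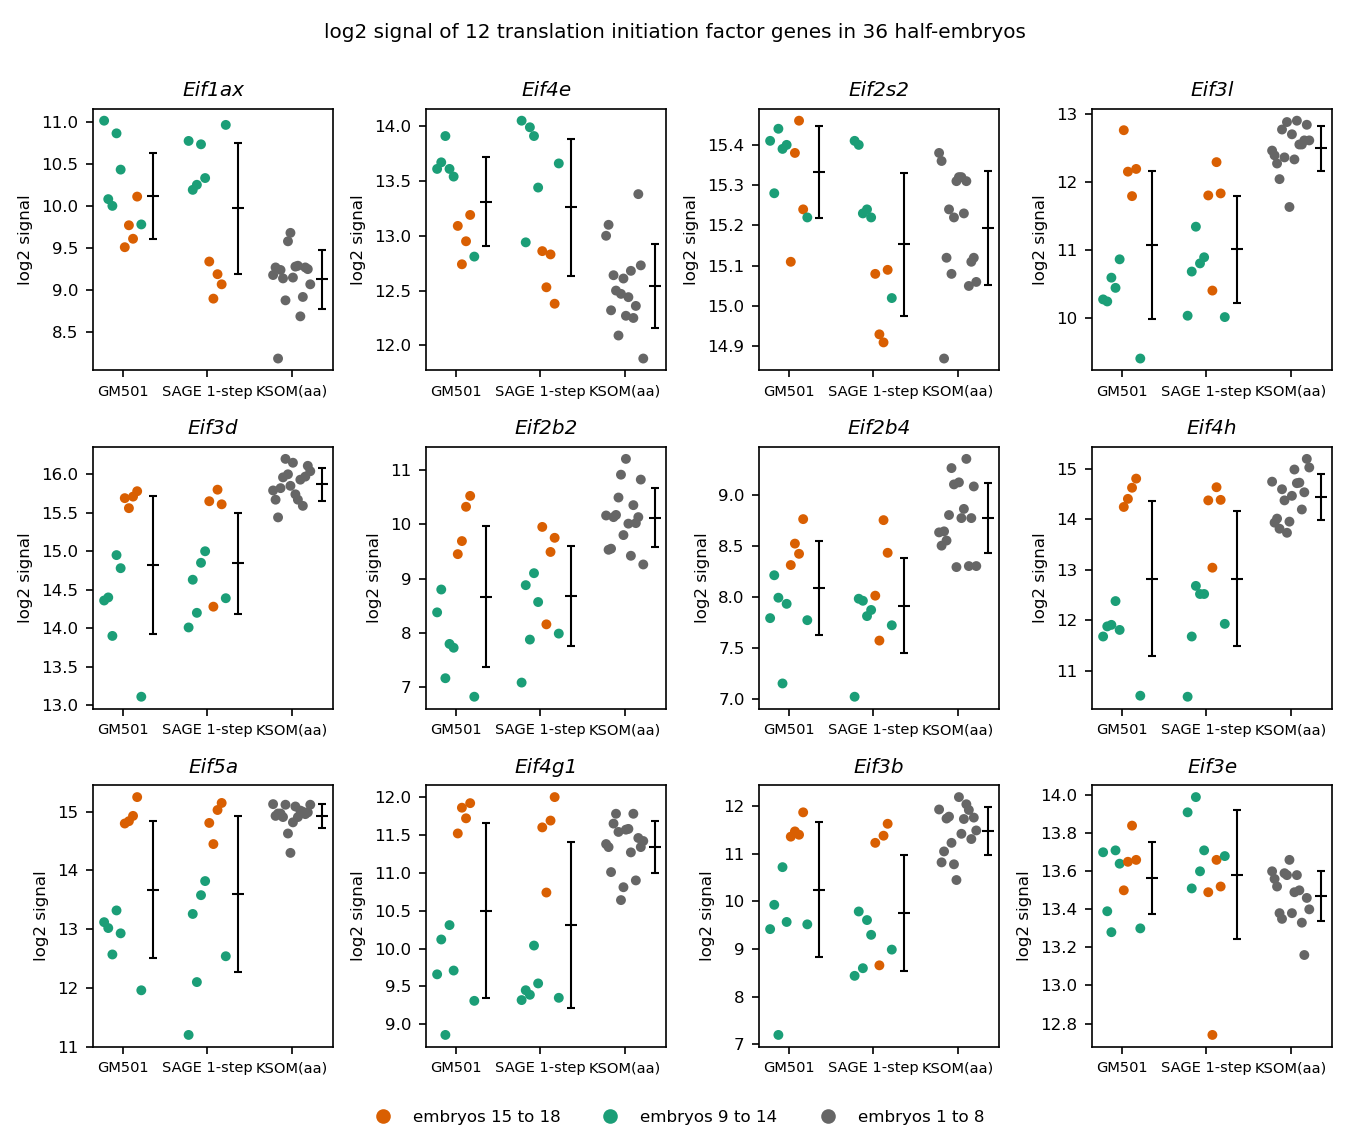
log2 signal (vertical axis of each panel) of 12 members in GM501, SAGE 1-step and KSOM(aa); each point is 1 half-embryo, coloured by embryo number, and the bar to the right of each group is the mean with its SD (n = 10, 10 and 16). Embryos 15 to 18 lie above embryos 9 to 14 in both GM501 and SAGE 1-step for Eif4h, Eif5a and Eif4g1, and below most of them for Eif1ax.

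Among the genes that act with eIF2, the exchange factor eIF2B had the most calls. Eif2b2, which encodes its beta subunit, ranged from 6.83 to 10.52 (median 8.59) in GM501, from 7.09 to 9.95 (median 8.72) in SAGE 1-step and from 9.26 to 11.20 (median 10.13) in KSOM(aa). Most GM501 and SAGE 1-step half-embryos lay below all KSOM(aa) half-embryos, but the ranges overlapped. The log2 difference was -1.45 ± 0.35 in GM501 (SE, adjusted p = 0.00917) and -1.44 ± 0.35 in SAGE 1-step (adjusted p = 0.00854). Eif2b4, for the delta subunit, ranged from 7.15 to 8.76 in GM501, from 7.02 to 8.75 in SAGE 1-step and from 8.29 to 9.35 in KSOM(aa), with differences of -0.69 ± 0.17 (adjusted p = 0.0113) and -0.86 ± 0.17 (adjusted p = 0.00172). Eif2b5, for the catalytic epsilon subunit, fell in SAGE 1-step (-0.86 ± 0.22, adjusted p = 0.0103) and was at -0.52 ± 0.22 in GM501 (adjusted p = 0.138). The other eIF2B genes, Eif2b1 and Eif2b3, were within 0.08 of KSOM(aa) in both media with adjusted p of 0.822 to 0.972. Less RNA of a gene per cell and fewer cells of a type that holds it cannot be told apart in RNA of a whole blastocyst.

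For the eIF2 subunits themselves, no call was made. Eif2s1, for the alpha subunit that the kinases phosphorylate, was at -0.38 ± 0.17 in GM501 (adjusted p = 0.156) and -0.29 ± 0.17 in SAGE 1-step (adjusted p = 0.268), and Eif2s2, for the beta subunit, at 0.14 ± 0.07 and -0.04 ± 0.07. Eif2s2 was among the steadiest members, with 15.11 to 15.46 in GM501, 14.91 to 15.41 in SAGE 1-step and 14.87 to 15.38 in KSOM(aa).

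Of the 4 eIF2 kinase genes, none passed in GM501 and 2 rose in SAGE 1-step. Eif2ak4 (GCN2, the sensor of amino acid shortage) ranged from 7.28 to 8.40 in GM501, from 7.34 to 8.56 in SAGE 1-step and from 6.81 to 8.13 in KSOM(aa), and these ranges overlapped widely. Its log2 difference was 0.56 ± 0.15 in SAGE 1-step (adjusted p = 0.0145) and 0.42 ± 0.15 in GM501 (adjusted p = 0.0763). Eif2ak2 (PKR, the sensor of double-stranded RNA) differed by 0.52 ± 0.16 in SAGE 1-step (adjusted p = 0.0388, and 0.075 with the embryo as a random block), from signals near background: it exceeded the receptor background on 4 of 10 GM501, 7 of 10 SAGE 1-step and 6 of 16 KSOM(aa) arrays. Eif2ak1 (HRI, the heme-regulated kinase) was at -0.67 ± 0.26 in GM501 (adjusted p = 0.0981), and Eif2ak3 (PERK, the kinase of the endoplasmic reticulum) at -0.29 ± 0.20 (adjusted p = 0.375).

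The eIF3 complex holds the small ribosomal subunit and was represented by 14 genes, of which 4 fell in GM501, 3 fell in SAGE 1-step and none rose in either. Eif3l, for a peripheral subunit, ranged from 9.40 to 12.76 (median 10.72) in GM501, from 10.01 to 12.29 (median 10.85) in SAGE 1-step and from 11.63 to 12.90 (median 12.55) in KSOM(aa). The upper ends of the 3 media nearly met, while the lower ends in GM501 and SAGE 1-step lay far under that of KSOM(aa). Differences were -1.42 ± 0.29 in GM501 (adjusted p = 0.00246) and -1.49 ± 0.29 in SAGE 1-step (adjusted p = 0.00135). Eif3d, for the subunit that can itself bind the cap of some messages, ranged from 13.11 to 15.78 (median 14.86) in GM501, from 14.01 to 15.80 (median 14.74) in SAGE 1-step and from 15.44 to 16.20 (median 15.89) in KSOM(aa). It thus differed by -1.05 ± 0.23 (adjusted p = 0.00469) for GM501 and -1.03 ± 0.23 (adjusted p = 0.00454) for SAGE 1-step, with a short overlap at the top.

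Eif3b, for a core scaffold subunit, spread most, from 7.20 to 11.87 (median 10.32) in GM501, from 8.44 to 11.63 (median 9.46) in SAGE 1-step and from 10.45 to 12.19 (median 11.61) in KSOM(aa). Its difference was -1.23 ± 0.40 in GM501 (adjusted p = 0.0499, and 0.0666 with the embryo as a random block) and -1.71 ± 0.40 in SAGE 1-step (adjusted p = 0.00592). Eif3c, for another core subunit, passed in GM501 only by a narrow margin (-0.79 ± 0.24, adjusted p = 0.0374, and 0.0558 with the block), beside -0.56 ± 0.24 in SAGE 1-step (adjusted p = 0.132); the difference between GM501 and SAGE 1-step for this gene was itself -0.23 ± 0.27 (adjusted p = 1). The other 10 subunit genes passed in neither medium, among them Eif3e (0.10 ± 0.10 in GM501, 0.11 ± 0.10 in SAGE 1-step), Eif3h (0.08 ± 0.15 and 0.09 ± 0.15) and Eif3k (0.02 ± 0.14 and -0.16 ± 0.14), while Eif3m was at 0.35 ± 0.16 and 0.36 ± 0.16 (adjusted p = 0.164 and 0.128). Over the 14 genes the log2 differences in GM501 ran from -1.42 to 0.35.

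At the cap, Eif4e, for the protein that binds it, was the only called gene of 4. It ranged from 12.74 to 13.91 (median 13.36) in GM501, from 12.38 to 14.05 (median 13.19) in SAGE 1-step and from 11.88 to 13.38 (median 12.48) in KSOM(aa). Signals overlapped, with the highest KSOM(aa) half-embryo near the median of GM501. Eif4e rose by 0.77 ± 0.19 in GM501 (adjusted p = 0.00989) and by 0.71 ± 0.19 in SAGE 1-step (adjusted p = 0.0135). Its relatives Eif4e2, Eif4e3 and Eif4e1b (an oocyte form) were at -0.21 ± 0.13, 0.13 ± 0.14 and 0.00 ± 0.08 in GM501, with no call in SAGE 1-step either. None of the genes for the inhibitors Eif4ebp1, Eif4ebp2 and Eif4ebp3 or for the eIF4E transporter Eif4enif1 was called; Eif4ebp1 was at -0.53 ± 0.23 in GM501 (adjusted p = 0.155) and -0.37 ± 0.23 in SAGE 1-step (adjusted p = 0.304).

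Of the eIF4G scaffold genes, Eif4g1 fell in SAGE 1-step (-1.03 ± 0.34, adjusted p = 0.0451) and was at -0.84 ± 0.34 in GM501 (adjusted p = 0.115), whereas Eif4g2 and Eif4g3 were called in neither. Signals of Eif4g1 were 8.86 to 11.92 (median 10.21) in GM501, 9.32 to 12.00 (median 9.79) in SAGE 1-step and 10.64 to 11.78 (median 11.40) in KSOM(aa), so that both other media reached above and far below KSOM(aa). The helicase genes Eif4a1, Eif4a2 and Eif4a3 were not called, but both helicase cofactors were. Eif4h ranged from 10.51 to 14.80 (median 12.14) in GM501, from 10.49 to 14.63 (median 12.60) in SAGE 1-step and from 13.73 to 15.19 (median 14.49) in KSOM(aa). It showed the lowest log2 difference of the 54 members in GM501, -1.61 ± 0.42 (adjusted p = 0.0157), with -1.61 ± 0.42 in SAGE 1-step as well (adjusted p = 0.0135). Eif4b ranged from 10.22 to 13.49 in GM501, from 10.32 to 12.98 in SAGE 1-step and from 12.15 to 13.43 in KSOM(aa), and differed by -1.03 ± 0.33 (adjusted p = 0.0476, and 0.0595 with the block) and -1.36 ± 0.33 (adjusted p = 0.00776).

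For start codon selection and subunit joining (7 genes), Eif1ax, an X-linked gene of eIF1A, which works with eIF1 at the start codon, rose in both media. Eif1a, an eIF1A gene on chromosome 18 counted with the remaining members below, was called in neither. Its mean was 13.07 in GM501, 13.17 in SAGE 1-step and 13.07 in KSOM(aa), a higher signal than that of Eif1ax. Eif1ax ranged from 9.51 to 11.01 (median 10.04) in GM501, from 8.90 to 10.96 (median 10.22) in SAGE 1-step and from 8.19 to 9.68 (median 9.21) in KSOM(aa). Most GM501 and SAGE 1-step half-embryos lay above the highest of KSOM(aa). The difference was 0.99 ± 0.22 in GM501 (adjusted p = 0.00469), the largest rise of any member there, and 0.84 ± 0.22 in SAGE 1-step (adjusted p = 0.0118). Half-embryos with high Xist (log2 signal above 10), the RNA of the inactive X chromosome, were 5 of 10 in GM501, 5 of 10 in SAGE 1-step and 4 of 16 in KSOM(aa). Within those with low Xist, Eif1ax was at 9.61 to 10.43 in GM501 and 8.90 to 10.33 in SAGE 1-step, against 8.19 to 9.29 in KSOM(aa), and within those with high Xist at 9.51 to 11.01 and 9.07 to 10.96, against 9.15 to 9.68. GM501 and KSOM(aa) did not overlap among half-embryos with low Xist and overlapped among those with high Xist, SAGE 1-step and KSOM(aa) overlapped in both, and the part of Xist in the rise was not tested. Eif6, which keeps the ribosomal subunits apart, fell in SAGE 1-step (-0.68 ± 0.19, adjusted p = 0.018) and was at -0.57 ± 0.19 in GM501 (adjusted p = 0.0563). Eif1, for the partner of eIF1A in start codon choice, was at 14.54 to 14.88 in GM501, 14.57 to 15.07 in SAGE 1-step and 14.17 to 14.81 in KSOM(aa), with differences of 0.10 ± 0.08 (adjusted p = 0.451) and 0.22 ± 0.08 (adjusted p = 0.0732). It and Eif1ad, Eif1b, Eif5 (which triggers GTP hydrolysis on eIF2) and Eif5b (which joins the subunits) were not called in either medium.

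The remaining 6 members held 3 called genes. Eif5a, for the protein that helps ribosomes past difficult stretches and carries hypusine, ranged from 11.96 to 15.25 (median 13.22) in GM501, from 11.20 to 15.15 (median 13.70) in SAGE 1-step and from 14.30 to 15.13 (median 14.97) in KSOM(aa). Its KSOM(aa) half-embryos lay within 0.83 of each other, whereas those of GM501 and SAGE 1-step spread over more than 3 log2 units. It differed by -1.26 ± 0.36 (adjusted p = 0.0265) and -1.34 ± 0.36 (adjusted p = 0.0152). Eif2d, for a factor that can deliver transfer RNA without GTP, ranged from 8.49 to 10.67 in GM501, from 8.15 to 10.01 in SAGE 1-step and from 9.52 to 10.74 in KSOM(aa), and differed by -0.84 ± 0.20 (adjusted p = 0.00767) and -1.11 ± 0.20 (adjusted p = 7.2e-04). Eif2a, for a separate initiator transfer RNA binding protein, rose in SAGE 1-step (0.57 ± 0.15, adjusted p = 0.0112) and was at 0.37 ± 0.15 in GM501 (adjusted p = 0.112).

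**Figure D2:**
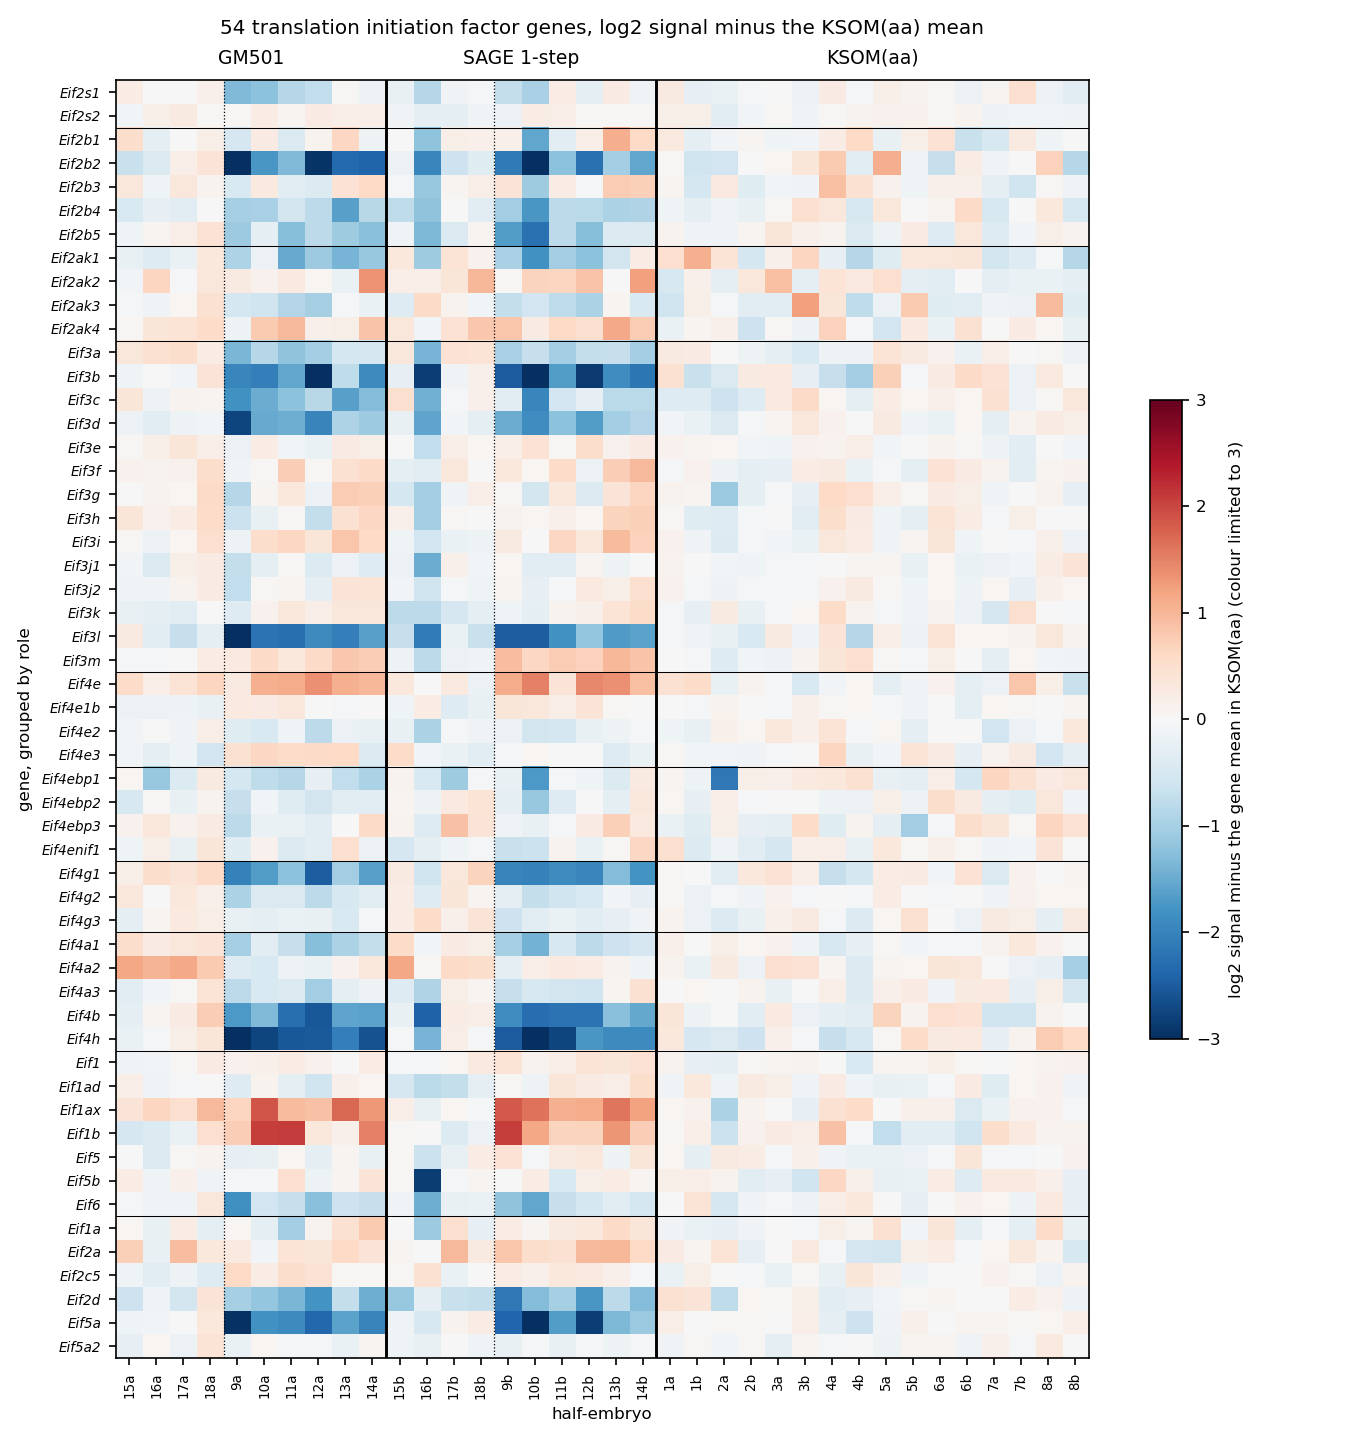
log2 signal of the 54 members (rows, grouped by role) in 36 half-embryos (columns) minus the mean of the gene in KSOM(aa); columns run GM501, SAGE 1-step, KSOM(aa), split by solid lines, with dotted lines between embryos 15 to 18 and embryos 9 to 14 inside each medium. The low signals of Eif3b, Eif3l, Eif4h, Eif4b and Eif5a in GM501 and SAGE 1-step lie mainly in embryos 9 to 14.

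The spread inside GM501 and SAGE 1-step followed the embryo number. Eif4h was at 13.04 to 14.80 (median 14.39) in embryos 15 to 18, at 10.49 to 12.68 (median 11.90) in embryos 9 to 14 and at 13.73 to 15.19 in KSOM(aa). Eif5a was at 14.45 to 15.25 (median 14.88) in embryos 15 to 18, at 11.20 to 13.82 (median 12.98) in embryos 9 to 14 and at 14.30 to 15.13 in KSOM(aa). For both genes, embryos 15 to 18 did not overlap embryos 9 to 14 and overlapped KSOM(aa). Eif4g1 (10.74 to 12.00 against 8.86 to 10.31) and the helicase gene Eif4a1 (14.27 to 14.91 against 12.94 to 14.01) were also fully higher in embryos 15 to 18 than in embryos 9 to 14, while the eIF3 gene Eif3m was fully lower (13.92 to 14.93 against 15.00 to 15.70). These were 4 members higher and 1 lower, where 1.58% of all clusters (2.79% of detected ones) lay fully higher and 4.42% (6.53%) fully lower. Without half-embryo 16b, 14 members lay fully higher, where 3.32% of all clusters (5.84% of detected ones) did, and 2 fully lower (Eif3m and Eif4e1b), where 15.3% (11.5%) did. The 14 were Eif2b2, Eif3a, Eif3b, Eif3c, Eif3d, Eif3l, Eif4a1, Eif4a2, Eif4b, Eif4g1, Eif4g2, Eif4h, Eif5a and Eif6. Eif4e1b lay near background, at 4.82 to 5.08 without 16b against 5.16 to 5.60 in embryos 9 to 14. The background level itself had a median of 4.72 in embryos 15 to 18 and 5.245 in embryos 9 to 14. Eif3b was at 8.66 to 11.87 (median 11.39) in embryos 15 to 18 and at 7.20 to 10.72 (median 9.47) in embryos 9 to 14, and its sets met only through half-embryo 16b. Rn18s and Gapdh, given above, separated the same embryos; their part in the differences was not tested, nor was any test made between these sets, since they were seen in the signals.

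Set against KSOM(aa), embryos 9 to 14 lay fully below for 9 members (Eif2b2, Eif2b4, Eif3a, Eif3d, Eif3l, Eif4b, Eif4g1, Eif4h and Eif5a), where 1.22% of all clusters (2.14% of detected ones) did, and fully above for 1, Eif1ax, where 2.37% (3.88%) did. Embryos 15 to 18 were clear of KSOM(aa) for 0 members, where 0.0747% of clusters were, and without half-embryo 16b for 1, Eif4a2, where 0.149% lay fully above. Fits within each set are given as a description, since the sets were seen in the same signals and their p-values are not independent of that choice. Within embryos 9 to 14 alone, 32 members passed in GM501 against KSOM(aa) (8 higher, 24 lower), where 52% of all clusters passed, 42.6% higher and 9.4% lower. In SAGE 1-step 31 members did (12 higher, 19 lower), where 46.5% of all clusters passed, 37.9% higher and 8.6% lower. In these embryos called members were thus mostly lower, and called clusters at large mostly higher. The latter shares are over clusters detected or not. Members are genes of high signal: in KSOM(aa) their median was 12.065, against 7.03 for detected clusters and 5.05 for all clusters (medians over arrays). The background level had a median of 5.245 in embryos 9 to 14 and 4.905 in KSOM(aa). The part of signal level in the contrast was not tested. Within embryos 15 to 18 alone, 1 member passed in GM501, Eif4a2 (1.03 ± 0.21, adjusted p = 0.0205), where 0.69% of clusters did, and 1 in SAGE 1-step, Eif3k (-0.59 ± 0.14, adjusted p = 0.0477), where 0.732% did. Eif4h thus differed from KSOM(aa) in embryos 15 to 18 by 0.08 with GM501 and by -0.33 with SAGE 1-step, and in embryos 9 to 14 by -2.74 and -2.46. For Eif5a the same 4 values were 0.03, -0.07, -2.11 and -2.18, and for Eif2b2 they were -0.13, -0.78, -2.34 and -1.87. Without half-embryo 16b, the SAGE 1-step values in embryos 15 to 18 were 0.03 for Eif4h, 0.07 for Eif5a and -0.39 for Eif2b2. Dropping half-embryo 16b from embryos 15 to 18 left GM501 with 1 member, Eif4a2, where 3.15% of all clusters passed, and gave SAGE 1-step 3 members, Eif4a2 (0.76), Eif2d (-0.84) and Eif3k (-0.52), where 6.34% did.

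**Figure D3:**
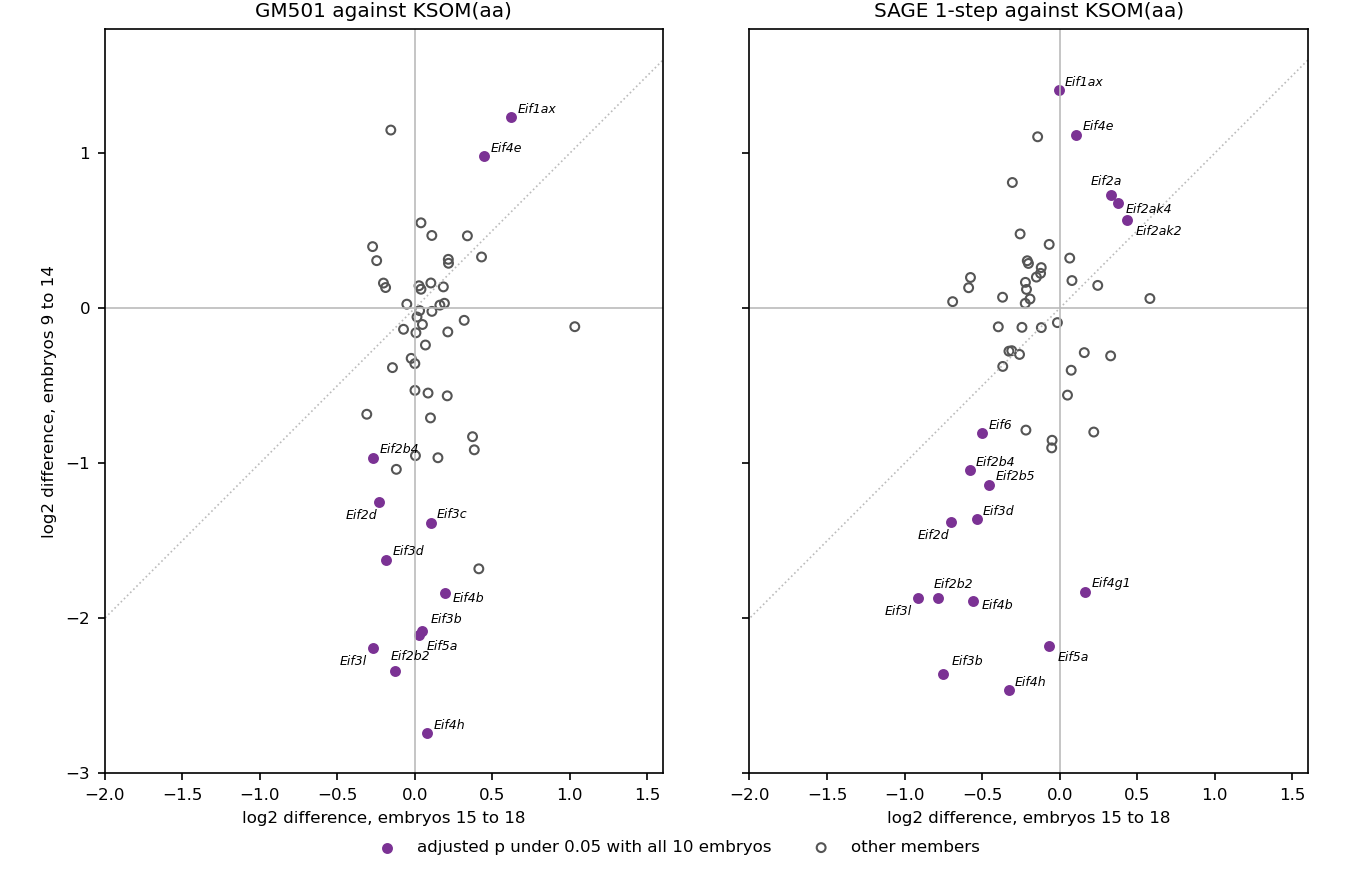
log2 difference from KSOM(aa) of each member in embryos 15 to 18 (horizontal axis) and in embryos 9 to 14 (vertical axis), for GM501 (left) and SAGE 1-step (right); both axes use the same KSOM(aa) half-embryos, and filled points passed an adjusted p of 0.05 with all 10 embryos. Eif4h lies at 0.08 and -2.74 in the GM501 panel, far from the dotted line of equal differences.

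The second comparison asks whether sisters placed in different media for human embryos came to differ. No member passed in GM501 against SAGE 1-step (0 of 54, where 0% of all clusters passed; smallest adjusted p = 1), and none passed with the embryo as a fixed block. At an unadjusted p under 0.05, 1 member did, Eif2s2, with 15.11 to 15.46 (median 15.38) in GM501 and 14.91 to 15.41 (median 15.16) in SAGE 1-step, a difference of 0.18 ± 0.08 (limma, unadjusted p = 0.0278), where 1.52% of all clusters passed at that level. The ranges of Eif2s2 overlapped over most of their length. With the embryo as a fixed block, which compares sisters within their pair, the 95% interval of the difference stayed within 1 log2 unit of 0 for 53 of the 54 members and reached 1.13 for Eif3b (0.48 ± 0.30). The Eif3b value rests in part on half-embryo 16b: without the block, its difference within embryos 15 to 18 was 0.80, and 0.11 with 16b left out. For Eif4h the interval ran from -0.53 to 0.52 within pairs, and from -0.95 to 0.95 without the block.

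Single pairs are described by the higher over the lower of 2 sisters, a ratio without direction that cannot be set against the means. Its median over the 52 detected members was 1.11 (embryo 15) to 1.67 (embryo 16). Over all detected clusters it was 1.17 in embryo 15 and 1.42 in embryo 16. In embryo 16, the GM501 sister was the higher for 44 members and the SAGE 1-step sister for 8, and Eif3b was at 11.47 in 16a against 8.66 in 16b, a ratio of 7.01. Embryos 9 and 12 leaned the other way, with the GM501 sister lower for 40 and 41 of 52 members. By the median over members, the GM501 sister was the higher in 4 of 4 pairs of embryos 15 to 18 and the lower in 5 of 6 pairs of embryos 9 to 14. In embryos 15 and 17 that median was near 0 (0.035 and 0.085). Members on the same array are not independent, and these directions were not set beside those of all detected clusters. The median of the members' log2 differences was 0.31 in embryos 15 to 18, 0.06 there without half-embryo 16b, and -0.14 in embryos 9 to 14; the difference between the sets was not tested.

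In KSOM(aa), where the sisters shared the medium, the question is whether sisters resembled each other more than half-embryos of different embryos. No member passed the test for differences among the 8 embryos (0 of 54, where 0.187% of all clusters did); at an unadjusted p under 0.05, 7 members did (Eif3a, Eif3c, Eif3g, Eif3h, Eif4b, Eif4h and Eif5a), where 13% of all clusters did. Eif4h had the largest ratio of variance among embryos to that within them, F = 5.37 (limma moderated F, adjusted p = 0.241), and its sisters differed by 0.31 on average, against 0.55 for half-embryos of different embryos. The next largest F were those of Eif3c (4.36, adjusted p = 0.293), Eif3g (4.32, adjusted p = 0.294), Eif4b (3.83, adjusted p = 0.325), Eif3h (3.65) and Eif3a (3.42), and the smallest those of Eif2c5 (0.14), Eif4a3 (0.33), Eif5a2 (0.34), Eif4g2 (0.36), Eif1ad (0.36) and Eif4enif1 (0.40). Over the 52 detected members, sisters were closer than non-sisters for 35 (67.3%), where this held for 65.9% of all detected clusters. The median ratio between sisters was 1.17 for the members and 1.21 for all detected clusters. In these descriptive shares the initiation factor genes lay close to detected genes at large.

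Some members differed more within pairs than between embryos. Eif2b2 sisters differed by 0.80 on average, against 0.62 for half-embryos of different embryos, and in embryo 8 half-embryo 8a was at 10.82 against 9.26 in 8b, a ratio of 2.95. Eif2ak3 was at 9.14 in 3b against 7.59 in 3a (ratio 2.93), in a gene whose other KSOM(aa) signals began at 7.16. The largest single gap was that of Eif4ebp1 in embryo 2, with 10.09 in 2a against 12.42 in 2b (ratio 5.03), where the median ratio of that gene over the 8 pairs was 1.13. At the other end, Eif2s2 sisters differed by a median ratio of 1.05 and at most 1.19.

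**Figure D4:**
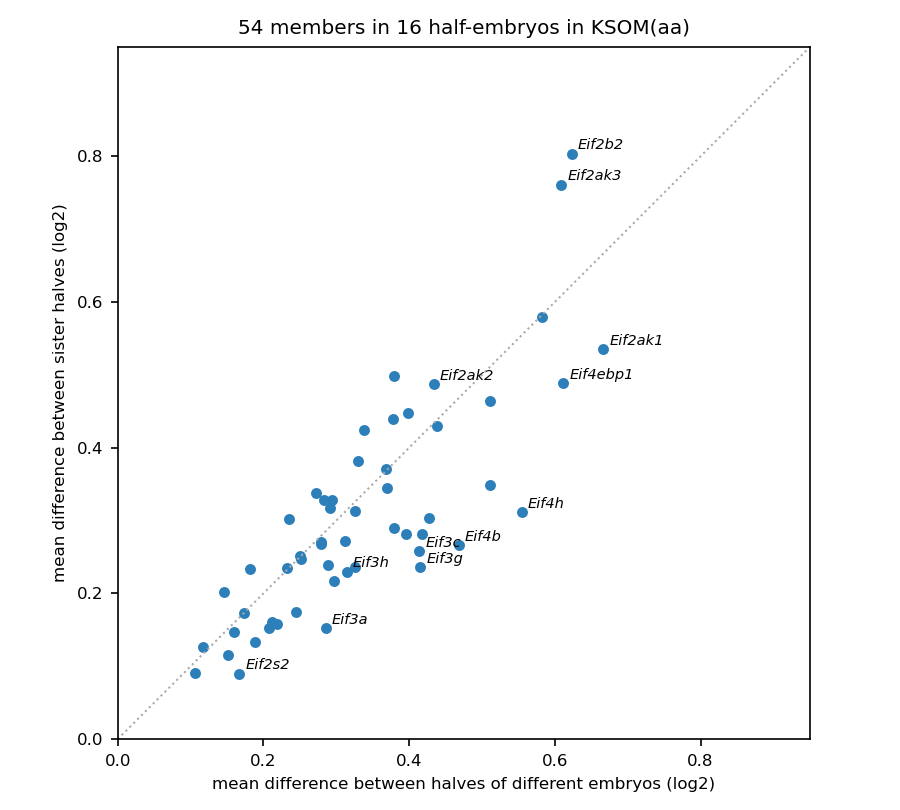
Mean absolute log2 difference of each of the 54 members between half-embryos of different embryos (horizontal axis) and between sisters (vertical axis) in the 16 KSOM(aa) half-embryos; points under the dotted line are genes whose sisters were closer. Eif4h lies well below the line (0.31 against 0.55) and Eif2b2 above it (0.80 against 0.62).

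Genes that act around initiation, outside the naming rule, gave scattered calls against KSOM(aa). Beside them, 7.66% of all clusters passed in GM501 (4.06% higher, 3.6% lower) and 9.55% in SAGE 1-step (5.13% higher, 4.42% lower). All of these genes were detected, and with detected clusters tested by themselves 17.2% and 19.8% passed. Of 12 genes of mTORC1 and MNK control, 3 fell in each medium and none rose: Larp1, which holds messages of the translation machinery (-1.15 in GM501, -1.26 in SAGE 1-step), Mknk2, a kinase of eIF4E (-1.47 and -1.23), and Tsc2, a brake on mTORC1 (-1.05 and -0.90). Of 7 genes of eIF2 dephosphorylation and the integrated stress response, 3 fell in GM501 (Ppp1r15a -0.63, Ppp1r15b -0.87, Trib3 -0.80) and 2 in SAGE 1-step (Ppp1r15a -0.60, Trib3 -0.96). Of 13 poly(A) binding proteins and other cofactors, 2 rose in GM501 (Paip2 0.38, Pdcd4 0.95) and 2 fell (Bzw1 -1.30, Dhx29 -0.96), and in SAGE 1-step 1 rose (Paip2b 0.75) and 3 fell (Bzw1 -1.07, Dhx29 -0.73, Pabpc4 -1.10). Of 9 elongation and release factors, none passed in GM501, and in SAGE 1-step Eef1e1 rose (0.50) and Eef2, the translocase of the ribosome, fell by 1.94 ± 0.58 (adjusted p = 0.029), beside -1.71 ± 0.58 in GM501 (adjusted p = 0.0631) and 0.24 ± 0.65 between GM501 and SAGE 1-step, while neither of the 2 hypusine synthesis genes passed. Within embryos 15 to 18 alone, none of these 43 genes passed in GM501, where 0.69% of all clusters did. Bzw1 and Dhx29 passed there in SAGE 1-step, where 0.732% did. Within embryos 9 to 14 alone, 52% of all clusters passed in GM501 and 46.5% in SAGE 1-step. There the mTORC1 and MNK list had 0 higher and 6 lower in GM501, and 2 and 6 in SAGE 1-step. The stress response list had 0 and 4 in both media. The poly(A) list had 3 and 5, then 3 and 3, and the elongation list 1 and 4, then 1 and 5. No hypusine synthesis gene passed.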

How the data were processed

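Single blastocysts were profiled on Affymetrix MTA-1_0 arrays after amplification with a WT Pico kit, 1 array per half-embryo. The authors made the deposited log2 signals with SST-RMA in Affymetrix Expression Console (version not given in the sources used here). The paper names it for correcting background, normalizing and summarizing probes. Array medians over clusters with a symbol still differed. They were 4.87 to 5.36 in embryos 15 to 18, 5.16 to 5.52 in embryos 9 to 14 and 4.98 to 5.21 in KSOM(aa). The deposited column of half-embryo 1a holds log2 signals too, but 1 of its cells is out of range for that unit, so its unit was entered as a score for the range check; that cluster was left out, leaving 65955. The 2 deposited tables were identical (0 of 2374416 cells differed). Arrays have no read depth, and their number limits the precision.

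Members and lists were chosen with earlier results of these data known. Each gene was represented by its transcript cluster with the highest mean over 36 arrays. The main test was limma 3.58.1 (R 4.3.3; lmFit, eBayes with a trend) on the 3 media, with Benjamini-Hochberg adjustment over 40160 clusters with a symbol (threshold 0.05); both comparisons with KSOM(aa) share its half-embryos. Half-embryos entered as single samples, so sisters in KSOM(aa) are not independent. A moderated F tested the 8 embryos in KSOM(aa). Genes named were members past the threshold (the 15 with the smallest adjusted p per comparison, and in SAGE 1-step also the other called ones), paralogs and the highest and lowest signals of a role, the 6 largest and 6 smallest F among KSOM(aa) embryos and the 4 largest gaps between embryo sets; other examples were chosen after their values were seen. GM501 and SAGE 1-step half-embryos of the same number come from the same embryo by the labels. The correlation of their deviations from the group means was 0.18 to 0.70 in 10 of 10 pairs. Half-embryos of different embryos were not compared, and sisters also share their embryo set, so these values cannot show the pairing. Intervals are 95% intervals from limma's moderated standard errors and degrees of freedom. Promoter windows came from RefSeq (GRCm38.p6). The fit was run on simulated data in which half-embryos were independent. These held no relation between sisters, no embryo sets and no array sets, so they do not bear on those limits. Alternatives were other scalings, filters and array weights, embryo blocks, and subsets of embryos. Python 3.11.15 with pandas 2.3.3 was used for tables.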

Additional observations from a re-analysis of the deposited data

Results flagged for a closer look

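A half-embryo far from the others of its medium (gap to its nearest neighbour over the range of the group, against Dixon's critical value for 10 samples) was looked for in 108 groups, the 54 members in GM501 and in SAGE 1-step, and found in 9; chance alone would mark about 5% of groups. Of the 9, 5 were the lowest signal of half-embryo 16b in SAGE 1-step: Eif5b at 10.13 (the other 9 at 12.51 to 13.21), Eif3j1 at 11.63 (12.77 to 13.28), Eif3e at 12.74 (13.49 to 13.99), Eif3h at 14.31 (15.35 to 16.06) and Eif1a at 11.98 (12.83 to 13.65). Eif3b was lowest in 12a in GM501, at 7.20 against 9.42 to 11.87 in the others. In SAGE 1-step, Eif4ebp2 was lowest in 10b, at 7.96 against 8.7 to 9.5, and Eif4e3 was highest in 15b, at 6.55 against 5.63 to 6.07. Eif5a2, a gene not detected here, was highest in 18a in GM501, at 5.03 against 4.38 to 4.70.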

How the results depend on the processing

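The 12 members called in GM501 and the 17 in SAGE 1-step against KSOM(aa) depended on which embryos entered. They also depended on whether KSOM(aa) sisters counted as separate samples. Embryos 9 to 14 only gave 32 and 31 (52% and 46.5% of all clusters passed), and embryos 15 to 18 only 1 and 1 (0.69% and 0.732%). That set less half-embryo 16b, an alternative chosen after seeing the data, gave 1 and 3 (3.15% and 6.34%). Averaging KSOM(aa) sisters gave 1 and 3 (1.47% and 1.85%), and only embryos 1 to 5 in KSOM(aa) 5 and 6 (2.08% and 2.78%). Scaling to Actb, Gapdh and Hprt gave 37 and 40 (79.1% and 84.3% of all clusters passed), and array weights 23 and 27 (20.3% and 32.5%). The following stayed within 1.5 times, with the share of the tested clusters that passed in parentheses. Quantile normalization gave 15 and 16 (11% and 12.1%), centring 10 and 14 (9.18% and 11.4%) and detected clusters only 14 and 18 (17.2% and 19.8%). All clusters gave 10 and 15 (4.85% and 6.47%), and an unmoderated analysis of variance 10 and 17 (7.23% and 9.25%). Averaging clusters of a gene gave 12 and 17 (7.66% and 9.55%), and leaving out 16b 13 and 19 (8.33% and 10.3%). The embryo as a random replicate block gave 9 and 16; it changed no call of a member other than the 4 given with its adjusted p. GM501 against SAGE 1-step and the KSOM(aa) embryos gave 0 members throughout. Among the called members and these alternatives, signs reversed in embryos 15 to 18 only. In GM501, with or without 16b, the log2 differences were 0.048 for Eif3b, 0.10 for Eif3c, 0.19 for Eif4b, 0.082 for Eif4h and 0.026 for Eif5a. In SAGE 1-step they were 0.17 for Eif4g1 and -0.005 for Eif1ax, and without 16b 0.067 for Eif4b, 0.027 for Eif4h, 0.42 for Eif4g1 and 0.067 for Eif5a. The cause was not tested. Eif2ak2, Eif4e1b, Eif2c5 and Eif5a2 lie at or near background, where differences are compressed.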
